A study of Drosophila melanogaster with 2 samples.

Results

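Far intergenic peaks are the B-H2 ChIP-seq peaks whose summit lies in no protein-coding gene and more than 10 kb from every protein-coding transcription start site (TSS). The rule used the summit position and the Ensembl release 115 gene models, and it used no signal. It found 1179 of the 30000 peaks in the authors' pooled list, or 3.93%. Of these, 71 were also in the authors' optimal list, which was filtered by IDR (the irreproducible discovery rate, which scores whether a peak ranks alike in both replicates), and 1108 were not. The name holds for protein-coding genes only: 176 of the 1179 summits (14.9%) lay in a non-coding gene of the annotation, and 70.4% of the IDR members and 69.1% of the others had the TSS of one within 10 kb. Counted against genes of every kind, 346 peaks met the rule.

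The chromatin came from whole embryos of Drosophila melanogaster, both sexes pooled, aged 6 to 22 hours, and the study had a single group with 2 biological replicates, numbered 1 and 3. All embryos were of a transgenic strain named B-H2-GFP, in which green fluorescent protein is joined to the C terminus of B-H2 and stably expressed, so there was no group without the tag. Antibody and assay labels give B-H2 and transcription factor ChIP-seq, yet a free-text line on both samples speaks of an input control. A separate experiment is named as a possible control and is not analysed here. The hours come from the source label, because the age entry is not readable as a time. Whole embryos mix all tissues, and no cell type is given to any peak.

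B-H2 is a homeodomain protein of the Bar family, and its paralog B-H1 is encoded next to it on the X chromosome. Both act in sensory organs, the eye and parts of the nervous system, and homeodomains of this kind bind short AT-rich sites. Enhancers of Drosophila developmental genes often lie in long stretches without coding sequence and can act on a gene many kilobases away. A peak in such a stretch is therefore named here by the genes on either side, without assigning it to either of them.

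The windows printed next are dm6 reference sequence, the summit base with 50 bp on either side, at the 6 strongest far intergenic IDR peaks on the other arms than the right arm of chromosome 2, read on the plus strand from the RefSeq copy of that assembly. They are shown because these peaks carry the highest signals of the set and because what lies under their summits differs from one to the next. Capitals mark any of the 10 searched sites (listed further on), on either strand. The windows are chr3R:13800584-13800684, chr4:424754-424854, chr2L:1632778-1632878, chr3L:781294-781394, chrX:17330766-17330866 and chrX:7242070-7242170, in that order.
Dip-B to tal-1A: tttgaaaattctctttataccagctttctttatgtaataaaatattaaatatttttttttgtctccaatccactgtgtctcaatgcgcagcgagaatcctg
dati to lgs: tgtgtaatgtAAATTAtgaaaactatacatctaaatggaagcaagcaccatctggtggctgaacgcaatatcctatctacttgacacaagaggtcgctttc
RFeSP to chinmo: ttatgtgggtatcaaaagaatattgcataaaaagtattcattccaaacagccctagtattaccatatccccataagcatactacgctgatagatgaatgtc
hng3 to CG13898: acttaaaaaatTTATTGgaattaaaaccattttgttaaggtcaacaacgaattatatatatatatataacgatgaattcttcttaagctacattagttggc
B-H2 to B-H1: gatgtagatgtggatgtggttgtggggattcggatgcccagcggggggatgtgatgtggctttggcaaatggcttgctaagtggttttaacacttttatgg
Cph to CG1958: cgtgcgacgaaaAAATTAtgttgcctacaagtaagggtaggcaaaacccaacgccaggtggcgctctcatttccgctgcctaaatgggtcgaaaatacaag
Of the 6 windows, 3 held 1 searched site each. Those between dati and lgs and between Cph and CG1958 each held TAATTT on the minus strand, and the window between hng3 and CG13898 held CAATAA on the minus strand. No searched site lay in the windows at Dip-B, at RFeSP or in the B-H2 to B-H1 gap, which says only that these letters were not within 50 bp of the summit. Base composition ranged widely, from 23.8% GC at hng3 to 49.5% in the B-H2 to B-H1 gap. Masked repeats covered 49.5% of the Dip-B window and none of the dati window. The letters ggtggc, picked out after the values were seen, stand in lower case in the dati and Cph windows.

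The strongest far intergenic peak lay between Dip-B, which encodes a dipeptidase, and tal-1A, one of the small-peptide coding genes of the tarsal-less locus. It spanned chr3R:13800408-13800724, 12475 bp from the nearest TSS, which was that of tal-1A. Its signal, the authors' value per peak, was 261 in replicate 1, 251 in replicate 3 and 509 in the pooled list. A weaker IDR peak in the same gap (chr3R:13802301-13802468) had a pooled signal of 236, with 83.0 in replicate 1 and 157 in replicate 3.

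The peak ranked next lay on chromosome 4 between dati, a zinc finger transcription factor gene, and lgs, which encodes the Wnt pathway cofactor Legless (chr4:424688-424924). Its signal was 151 in replicate 1, 302 in replicate 3 and 449.9 in the pool, so replicate 3 was the higher. At RFeSP, which encodes the Rieske protein of the respiratory chain, and chinmo, a BTB zinc finger gene of neuronal temporal identity, the strongest peak (chr2L:1632692-1632979) read 197 and 220.1 in replicates 1 and 3 and 417 in the pool. Both replicates were close there.

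Between hng3 and CG13898 the peak at chr3L:781205-781454 had signals of 162 and 171 in replicates 1 and 3 and 332 in the pool. The strongest peak of the B-H2 to B-H1 gap (chrX:17330679-17330948) read 154, 173 and 324. The one at Su(z)2, a Polycomb group gene, and CG13323 read 136, 184 and 310.1. For all 3, replicate 3 was the higher, on a scale set by the caller separately in each list.

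CG8517 and Or56a, an odorant receptor gene, flanked a peak with a pooled signal of 294, and this one was higher in replicate 1 (168) than in replicate 3 (132). Cph, a zinc finger transcription factor gene, and CG1958 flanked a peak of 285 in the pool that was far lower in replicate 1 (67.2) than in replicate 3 (212). Ranks 9 to 20 by pooled signal ran from 279 down to 216. Among them were peaks between CG13970 and CG10651, in the Su(z)2 gap again, at 2 places between NijA and CG43245, and between CG30089 and Zasp52, CG6739 and Slob, Glut3 and abd-A, Dip-B and tal-1A, CG15452 and shakB, and caup and mirr. Among these genes Zasp52 encodes a muscle Z-disc protein, shakB a gap-junction innexin, abd-A a Hox protein, and caup and mirr homeodomain proteins of the Iroquois complex.

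Just below the IDR peaks, the 10 strongest far intergenic peaks outside the list had pooled signals of 106 to 112. The first lay between Aps and CG14147 (65.3 in replicate 1, 48.3 in replicate 3). That between CG18480 and stol had a signal of 34.0 in replicate 1 and no overlapping peak in replicate 3. Others lay between pyr and ths, the FGF ligand genes, between dnc and Myc, and between bi, a T-box gene, and CG3556. The remaining ones lay between CG13898 and Sf3b3, Mnt and Rala, trv and CG34354, danr and lobo, and CG6414 and CG43689. The peak at bi was uneven, with 16.8 in replicate 1 against 90.5 in replicate 3.

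The IDR share of far intergenic peaks was low. It was 6.02% (exact 95% interval 4.73 to 7.54), beside 14.3% of all pooled peaks and 25.05% of the peaks within 1 kb of a TSS. Every IDR peak is also a row of the pooled list, and the list holds the rows of highest signal, so a share in the IDR list is a share above one signal level. Intergenic peaks 1 to 10 kb from a TSS had a share of 7.55% (259 of 3430). The odds ratio of far against near intergenic was 0.785 (0.589 to 1.03), which did not pass Fisher's exact test (two-sided, adjusted p = 0.0885 over 2 comparisons). Intronic peaks over 10 kb from every TSS had a share of 3.57% (94 of 2632), and here the far intergenic share was higher (odds ratio 1.73, 1.24 to 2.40, Fisher's exact test, adjusted p = 0.00200).

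These p-values measure the counting of peaks, not the spread between embryos, and neighbouring or overlapping rows are not independent. The difference from intronic peaks did not pass with a distance of 20 kb (odds ratio 1.57, Fisher's exact test, adjusted p = 0.241). The difference from near intergenic peaks passed in replicate 1 alone, without replicate 3 (odds ratio 0.670, Fisher's exact test, adjusted p = 0.00876), where the same number of strongest peaks stood in for the IDR list.

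Beyond 5 kb the share moved little with distance. It was 9.33% at 1 to 2 kb, 7.34% at 2 to 5 kb and 6.30% at 5 to 10 kb. Within the far intergenic set it was 6.43% at 10 to 15 kb (n = 513), 5.94% at 15 to 20 kb (n = 303), 4.55% at 20 to 30 kb (n = 220) and 6.99% at 30 to 100 kb (n = 143), with intervals that all overlap. The median distance was 15964 bp over all members and 15665 bp over the IDR members, which reached 42275 bp, at the peak between Or67d, a pheromone receptor gene, and CG12362.

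**Figure D1:**
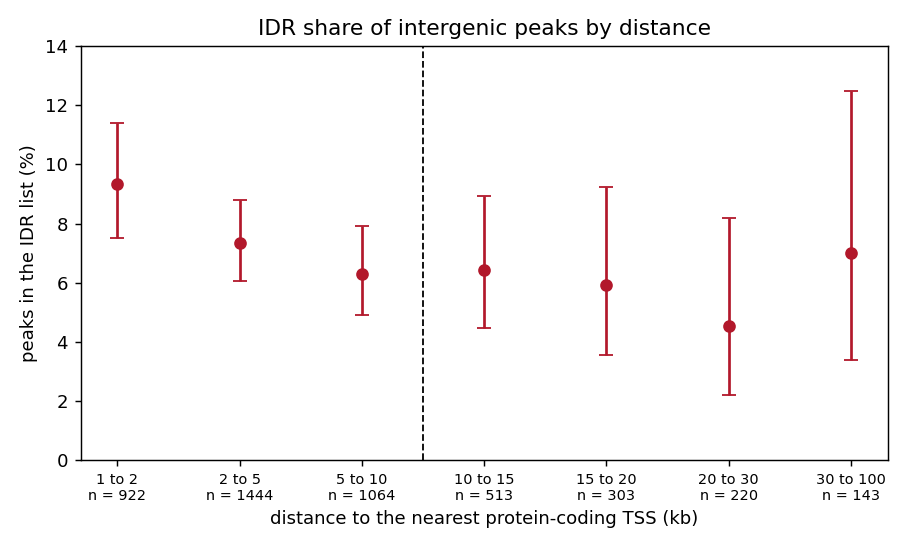
Share of intergenic peaks in the IDR list (percent, vertical axis) by distance to the nearest protein-coding TSS (kb, horizontal axis). Points are shares, bars exact 95% intervals, n the peaks per bin, and the dashed line 10 kb. The share falls from 9.33% at 1 to 2 kb to 6.30% at 5 to 10 kb, and the 4 bins beyond lie between 4.55% and 6.99%.

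The 5 peaks farthest from a TSS were all outside the IDR list. The farthest lay 95104 bp from the TSS of Pld, the phospholipase D gene, in the 246739 bp gap up to jing, and its pooled signal was 26.8. Next came a peak of 35.7 between Cda4 and CG12446 (78748 bp), peaks of 33.3 and 50.4 between Or67d and CG12362 (69217 and 68532 bp), and a peak of 33.5 between Cyp12e1 and hth (69104 bp). The last of these lay 3668 bp from the body of hth, a homeobox gene, so a long distance to a start site was a short one to the gene. At the 10 kb limit, the first 3 peaks inside were at CG6414 (10003 bp, signal 25.7), at CG1789 and Lim1 (10006 bp, 76.4) and at CG13405 and CG12483 (10007 bp, 160.2, an IDR peak). The last 3 outside were at heca (9998 bp, 60.9), Hsp70Ba (9988 bp, 40.2) and MED26 (9981 bp, 45.3).

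Among the IDR members, 10 of 71 (14.1%, 6.97 to 24.4) had their summit within 1 kb of a protein-coding gene body, against 50 of the other 1108 (4.51%, 3.37 to 5.91). This feature was looked at after the values were seen and has no test. All 10 lay at the 3′ end of the gene, which the rule fixes, since a summit beside a 5′ end is close to a TSS. They were at Zasp52 (125 bp from the end), CG7029 (138 bp), ct (152 bp), Slob (162 bp), dnc (173 bp), Cph (188 bp), sty (229 bp), Su(z)2 (417 bp), CG34355 (489 bp) and shakB (498 bp). The homeobox gene ct, the phosphodiesterase gene dnc and the receptor tyrosine kinase antagonist gene sty are long known from development and the nervous system. Such a peak is far from a start site without being far from a gene.

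Far intergenic peaks were spread unevenly over the gaps between protein-coding genes. Of 729 gaps that hold any sequence meeting the rule, 293 (40.2%) held a peak and 40 (5.49%) an IDR peak. The 22 gaps with 10 or more held 449 peaks (38.1%), and the 13 gaps with more than 1 IDR peak held 44 of the 71 (62.0%). These counts were not set against the length of qualifying sequence, and a longer gap has more room for peaks. Gaps with a peak had a median length of 29987 bp and those without one 23838 bp. Of the 71 IDR members, 33 (46.5%) had another IDR member within 5 kb. Over all 1179 far intergenic peaks, a larger set, 951 (80.7%) had another of the set within 5 kb. Some rows overlap each other: merged, the 1179 made 1052 separate regions.

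The gap with the most peaks of either kind was NijA to CG43245 on 3L, 75047 bp long, where NijA encodes the adhesion protein Ninjurin A. It held 37 far intergenic peaks, 8 of them in the IDR list, with pooled signals of 113 to 261. Their summits lay 38403 to 55940 bp from NijA, so all 8 stood in the part of the gap nearer to CG43245. The strongest (chr3L:10737230-10737409) read 78.4 in replicate 1 and 182 in replicate 3. Its neighbour (signal 116, chr3L:10737336-10737719) overlaps it and matched the same replicate peaks, so the pair is not independent evidence of 2 sites.

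RFeSP to chinmo, 37097 bp on 2L, held 22 peaks and 6 IDR peaks, and among the gaps with the most peaks it was the densest, with 12.9 per 10 kb of qualifying sequence. Its IDR signals were 127, 131, 133, 157, 201 and 417, and replicate values of the 5 weaker ones lay between 50.6 and 117. CG6168 to CG6163 held 23 peaks and 4 IDR peaks (179, 153, 113 and 114), all in the part nearer to CG6163. The peak of 153 was uneven, at 116 in replicate 1 and 43.7 in replicate 3.

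The long gap from plh to corto, a gene for a chromatin protein that interacts with Polycomb and Trithorax factors, held 35 peaks but 3 IDR peaks (172, 145 and 123). Between hry, the pair-rule repressor gene hairy, and SrpRbeta, 30 peaks stood within 39695 bp, at 12.4 per 10 kb of qualifying sequence, and 2 of them were IDR peaks (144 and 141). Or67d to CG12362 held 29 with 1 IDR peak. Between vvl, a POU homeobox gene of trachea and nervous system, and Prat2 there were 25 peaks with no IDR peak, and the strongest read 103. The gap from comm, which controls axon crossing of the midline, to CG6244 held 22 peaks, also with none in the IDR list and a highest signal of 75.3. Many peaks thus did not always come with many IDR peaks in these gaps. The IDR share over all far intergenic peaks was itself low, at 6.02%. Whether the counts of these gaps differ from that share was not tested.

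**Figure D2:**
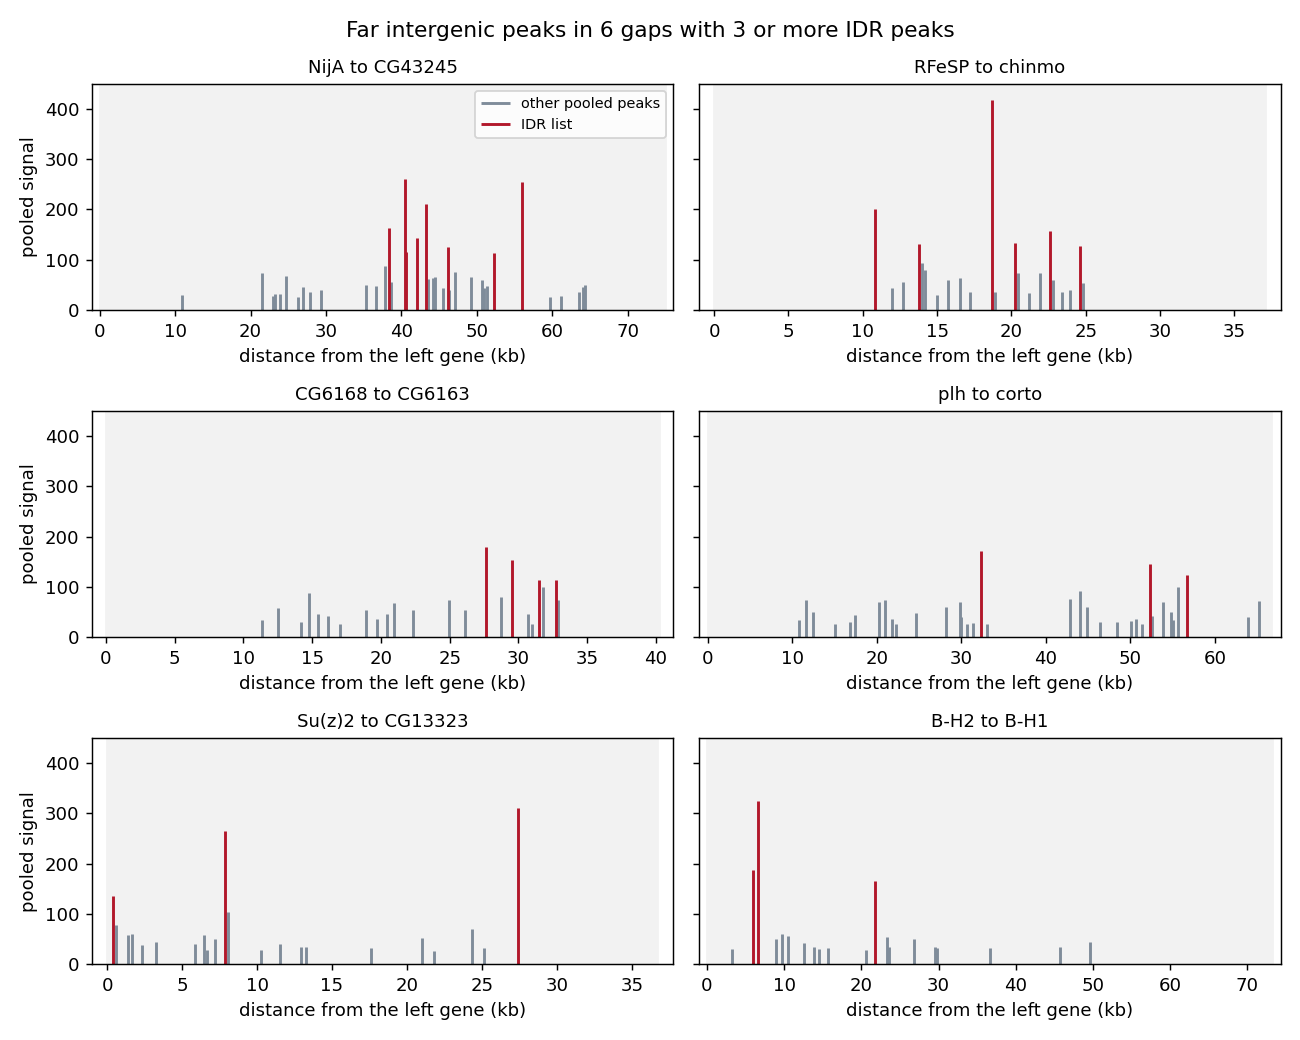
Far intergenic peaks in 6 gaps that hold 3 or more IDR peaks each. Each line stands at a summit (horizontal axis, kb from the gene on the left) and its height is the pooled signal (vertical axis), red for IDR peaks and grey for the others, with the gap shaded. IDR peaks of the NijA gap stand between 38403 and 55940 bp from NijA, and the tallest line is the peak of 417 between RFeSP and chinmo.

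The 73302 bp between B-H2 and B-H1 held 20 far intergenic peaks, 3 of them in the IDR list, at 3.18 per 10 kb of qualifying sequence. All 3 IDR peaks lay nearer to B-H2: 5954 bp (188), 6641 bp (324) and 21828 bp (165) from its gene body. Their signals in replicates 1 and 3 were 81.0 and 113, 154 and 173, and 76.6 and 96.1, so replicate 3 was higher at each. The median over all 71 IDR members was also higher in replicate 3 (95.7) than in replicate 1 (76.6). The other 17 peaks of the gap had pooled signals of 28.9 to 59.9. The 3 closest to B-H1 read 32.8, 34.2 and 43.9 in the pool and were matched in replicate 1 only.

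Per base, far intergenic sequence held fewer peaks than the genome as a whole, 57.1 per Mb against 218. It makes up 15.01% of the 7 arms. Density differed between arms: 94.7 per Mb on 2L, 95.7 on 4, 83.9 on 3L, 71.5 on 3R, 45.9 on X, 25.5 on 2R and 0 on Y, where 2361 kb qualified. The largest gaps without a single peak ran from ARY to Ppr-Y and from WDY to FDY on Y, from CG42598 to CG40228 on 3L, from the arm end to Myo81F on 3R, and from DIP1 to CG40813 on X. Their share of masked repeat sequence was 34.4 to 72.7%, beside 15.3 to 37.6% in the 15 gaps with the most peaks, and its part in the low density was not tested. Between IDR members and the rest, none of the 6 arms with members passed Fisher's exact test (adjusted p from 0.631 to 1, none under 0.05 before adjustment). By arm the IDR counts were 30 of 430 on 3L, 13 of 278 on 2L, 12 of 219 on 3R, 8 of 135 on X, 6 of 104 on 2R and 2 of 13 on 4.

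Non-coding genes lay under some of the far intergenic summits of both sets, with no difference beyond the counting error. They were hit by 11 of 71 IDR members (15.5%, 8.0 to 26.0) and 165 of 1108 others (14.9%, 12.8 to 17.1), an odds ratio of 1.05 (0.486 to 2.07, Fisher's exact test, two-sided, p = 0.864). By class, 163 summits lay in ncRNA genes, 5 in tRNA genes, 1 in a snoRNA gene and 7 in annotated transposable elements, and all 11 IDR members were in ncRNA genes. The strongest per class were the peak in lncRNA:CR44357 at Cph (285), that in tRNA:Glu-TTC-1-5 at Or56a (78.9), that in a transposable element at nrv3 (61.4) and that in snoRNA:U3:9B between CG43740 and l(1)G0289 (56.5). The tRNA peak overlaps the IDR peak of 294 between CG8517 and Or56a and matched the same replicate 1 peak (168). Its place outside the IDR members thus depends on which overlapping row has its summit in the tRNA gene. No IDR summit lay in a transposable element, where 0 of 71 allows up to 5.06% (exact 95% limit).

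Starts of non-coding genes were also near some of the IDR summits. A non-coding TSS lay within 1 kb of 14 of 71 IDR members (19.7%, 11.2 to 30.9) and of 173 of the other 1108 (15.6%, 13.5 to 17.9), shares looked at after the values were seen and given without a test. Among the closest were snRNA:U1:95Ca between CG34355 and Pli (26 bp) and a snoRNA gene between CG8517 and Or56a (121 bp). The gene snRNA:U1:95Ca encodes the U1 RNA of the spliceosome. That peak read 123 in replicate 1, 70.8 in replicate 3 and 194 in the pool.

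Base composition at the summit was compared next. GC content over the summit windows was 42.2% ± 11.1 (SD) at the 71 IDR summits and 42.7% ± 9.30 at the other 1108, a difference of -0.49 percentage points (permutation test of 100000 resamples, two-sided, p = 0.677). Among near intergenic IDR peaks the mean was 39.1%. Masked repeat bases made up 15.9% ± 18.6 and 18.1% ± 18.8 of the windows (permutation test, p = 0.346). With a distance of 5 kb the GC difference passed, at -2.12 points (permutation test, p = 0.0105). Of the IDR members, 38 had the caller's full width of 384 bp and the others were narrower, down to 97 bp, whereas 1107 of the 1108 other members were 384 bp wide.

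The 10 sites, sought on either strand in the same windows, were chosen as homeodomain sites and as sites of promoter and insulator factors. The homeodomain sites were TAATTG and its relative TAATTA, the Bar-type site TAAACG, the AT-rich site TAATTT, and the site CAATAA, which Caudal-type proteins read. TATCGA is part of the site of DREF and BEAF-32, GGTCAC of the promoter motif Ohler 1, GAGAGA is read by GAGA factor, CACACA is a dinucleotide repeat, and CAGGTA is part of the site of Zelda. None of the 10 passed between IDR members and the rest (Fisher's exact test, two-sided, adjusted p = 0.697 for 9 of them and 1 for TAATTG), and none was under 0.05 before adjustment. TAATTG and TAATTA share TAAT, so they are not separate evidence.

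TAATTG stood in 7.04% of the IDR windows and 7.67% of the rest (odds ratio 0.912, 0.279 to 2.33). TAATTA stood in 4.23% and 6.77%, TAAACG in 5.63% and 4.06%, TAATTT in 19.7% and 16.6%, and CAATAA in 9.86% and 7.67%. At least 1 of these 5 was present in 26 of 71 IDR windows (36.6%) and 398 of 1108 others (35.9%). The intervals are wide enough to hold a sizeable difference in either direction. In IDR peaks within 1 kb of a TSS, TAATTG stood in 8.59% and TAATTA in 7.36% of 3098 windows of the same length.

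The promoter factor sites TATCGA and GGTCAC were few at far intergenic summits, and also at near intergenic and intronic ones. TATCGA was in 0 of 71 IDR windows (up to 5.06%) and 2.53% of the rest, beside 15.7% of the IDR windows within 1 kb of a TSS. GGTCAC was in 0 of 71 and 1.81%, beside 5.75%. Over all near intergenic windows TATCGA stood in 3.53% and GGTCAC in 2.01%. In windows of intronic peaks over 10 kb from every TSS they stood in 2.39% and 1.37%. CACACA stood in 9.86% of the far intergenic IDR windows and 14.4% of the rest, GAGAGA in 5.63% and 4.33%, and CAGGTA in 4.23% and 1.53%. The last had an odds ratio of 2.83 (0.518 to 10.1, Fisher's exact test, unadjusted p = 0.114). In the IDR windows within 1 kb of a TSS these sites stood in 8.65%, 3.94% and 1.58%, lower than in the far intergenic IDR windows. Across all possible 6-base sites, 0% passed after adjustment. An unadjusted p under 0.05 in Fisher's exact test was found for 79 of the sites screened, or 3.80%. AACTAG led that search, in 9 of 71 (12.7%) against 2.53% (Fisher's exact test, adjusted p = 0.415). GGTGGC, named after its values were seen and without a test, was in 8 of 71 (11.3%, 4.99 to 21.0) and 6.50% of the rest. It was in 5.04% of all pooled peaks within 1 kb of a TSS, whether in the IDR list or not.

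**Figure D3:**
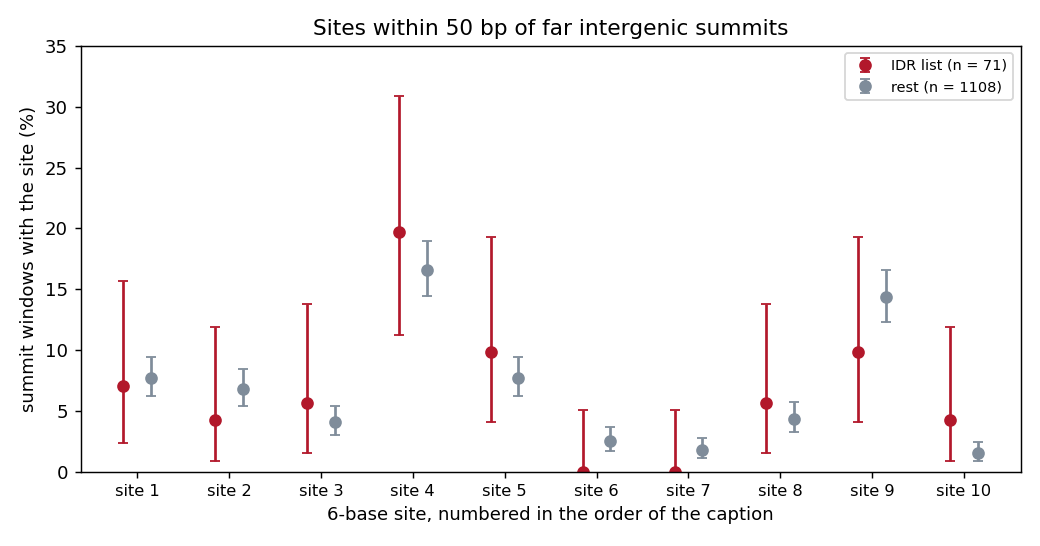
Share of summit windows (50 bp to each side) that hold each site (percent, vertical axis), red for the 71 IDR members and grey for the other 1108, with exact 95% intervals. Site 1 is TAATTG, site 2 is TAATTA, site 3 is TAAACG, site 4 is TAATTT, site 5 is CAATAA, site 6 is TATCGA, site 7 is GGTCAC, site 8 is GAGAGA, site 9 is CACACA and site 10 is CAGGTA. Intervals of both sets overlap at every site, and sites 6 and 7 are at 0 in the IDR members.

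Both replicates listed most of the far intergenic peaks. A peak of replicate 1 overlapped 887 of 1179 (75.2%, 72.7 to 77.7) and one of replicate 3 overlapped 880 (74.6%, 72.1 to 77.1), by at least 1 bp. Both did so for 660 (56.0%), beside 67.1% of all pooled peaks, and neither for 72. The pooled list was made from both replicates, so such overlap is partly fixed in advance, and so is the finding that all 71 IDR members matched in both. The rank of the match was less uniform: 53 of the 71 were among the strongest peaks of replicate 1 and 65 among those of replicate 3, counting as many peaks in each as the IDR list holds.

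Signals in replicate 1 ranged from 24.7 to 261 over the IDR members (median 76.6) and in replicate 3 from 43.7 to 302 (median 95.7). For the other members matched, the medians were 23.5 and 26.0. Over the 660 peaks matched in both, Spearman's rho was 0.65, and over the 71 IDR members it was 0.38, as a description of peaks that share libraries, a control alignment and, in part, overlapping rows. The lowest IDR value in replicate 1 belonged to the peak between CG31275 and Glut3 (24.7, against 85.4 in replicate 3). Of the members outside the IDR list, 22 overlap an IDR peak and can share its replicate match.

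Peaks found in 1 replicate alone had signals of at most 55.1. Applied to the replicate lists, the rule found 1306 far intergenic peaks in replicate 1 and 1135 in replicate 3, and of these 631 (48.3%) and 475 (41.9%) overlapped none in the other. None of them was among the strongest of its list. In replicate 1 the highest lay between CG13898 and Sf3b3 (53.9), ftz and Antp (48.2), CG44270 and CG31677 (42.9), Or67d and CG12362 (42.8) and side-VIII and Obp57c (41.1). In replicate 3 they lay at 2 places between hry and SrpRbeta (55.1 and 50.5), between Su(z)2 and CG13323 (53.6), Rh50 and Con (48.6) and tsh and CG11629 (48.4). The peak between ftz, a pair-rule gene, and Antp was the only one of these 10 that overlapped no peak of the pooled list.

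**Figure D4:**
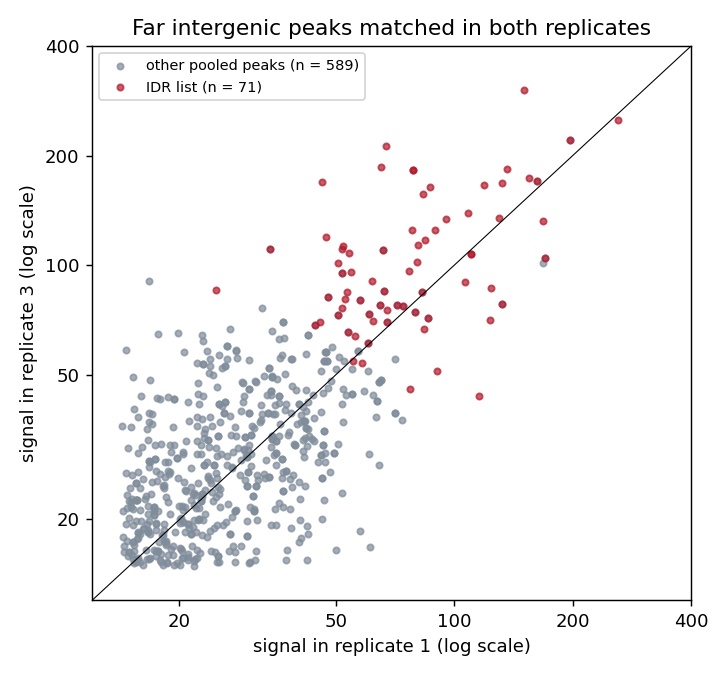
Signal in replicate 1 (horizontal axis) against replicate 3 (vertical axis), both on log scales, for the 660 far intergenic peaks matched in both, red for the 71 IDR members and grey for the other 589. The line marks equal values. Red points lie in the upper part, and the Spearman correlation is 0.65 over all 660.

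By the genes on either side, 543 of 13968 protein-coding genes (3.89%) flanked a far intergenic peak and 77 (0.551%) flanked an IDR member. A gene can flank one only if it borders a gap long enough, which 1225 genes did (8.77%), and 44.3% of those flanked a peak. Groups whose genes stand in long gaps therefore reach higher shares by position alone, and the lists are described by their counts without a test. Flanking counts the gene on either side. With the gene of the nearest TSS alone, 374 genes had a far intergenic peak and 44 an IDR member.

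Hox genes, which set segment identity, flanked far intergenic peaks in 5 of 8 cases, all of those that border a long enough gap. An IDR member lay next to abd-A, Abd-B and Antp. By nearest TSS alone the counts fell to 2 Hox genes with a peak and 1, Abd-B, with an IDR member. The one between Glut3 and abd-A (chr3R:16798789-16799010) read 119 in replicate 1, 166 in replicate 3 and 247 in the pool. The one between MSAmiP and Abd-B read 51.9, 110.5 and 165 and lay in lncRNA:iab8, the long transcript of the abdominal regulatory domains. In the bithorax region a further IDR peak, of 116 in the pool, lay between CG31275 and Glut3 in lncRNA:bxd, a transcript of the regulatory region of Ubx. Between Antp and Sodh1 the peak read 52.7, 80.9 and 143. At these 4 peaks replicate 3 was the higher, as was its median over all IDR members (95.7, against 76.6 in replicate 1). Dfd and Scr flanked 12 peaks, for which the highest pooled signal was 77.4.

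Among homeobox genes outside the Hox complexes, 16 of 63 (25.4%) flanked a far intergenic peak and 5 (7.94%) an IDR member: B-H1, B-H2, caup, mirr and ct. Of the 63, 28 border a long enough gap. By nearest TSS alone 12 had a peak and 2, B-H2 and mirr, an IDR member. Between the Iroquois genes caup and mirr stood 11 peaks and 2 IDR members, of 222 and 142 in the pool. The first of these was 40319 bp from the nearest TSS and uneven, at 46 in replicate 1 and 169 in replicate 3.

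Gap, pair-rule and segment genes flanked such peaks in 10 of 30 cases, with an IDR member in the case of hry alone. The BMP ligand gene dpp flanked 5 peaks, the strongest of 95.4, while drm (93.2) and the gap gene kni (84.6) flanked 1 each. Of the proneural and neuroblast genes, 4 of 24 did. SoxN, a Sox gene of the early nervous system, had the only IDR member (165 in the pool, 54.0 in replicate 1 and 108 in replicate 3), and Sox21b and D shared 3 weaker peaks, of up to 80.4. The POU gene nub flanked 4, of up to 45.2.

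For axon guidance and adhesion genes the count was 13 of 41, with no IDR member. Toll-6 flanked 9 peaks (up to 88.1), Dscam2 4 (up to 64.0), Con 1 (59.3) and the guidance receptor gene robo3 4 (up to 57.0). Of the signalling genes, 8 of 37 flanked a peak and none an IDR member, led by the 7 peaks between pyr and ths (up to 109) and 1 peak at the FGF gene bnl (82.3). Synaptic and channel genes flanked far intergenic peaks in 6 of 30 cases. The glutamate receptor gene GluRIB had an IDR member (153), and Shal (66.0), Rdl (56.2) and 5-HT2A (42.1) had weaker peaks.

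Epidermis, trachea and gut genes did so in 6 of 25 cases. The zinc finger gene noc had 17 peaks with 2 IDR members (202 and 151), vvl had 29 peaks with none, and fkh (83.3) and tsh (45.6) had weaker ones. Muscle and heart genes were at 1 of 23, bt with 2 peaks of up to 82.5, and only 1 of the 23 borders a long enough gap. Chemosensory receptor genes were at 8 of 179 (4.47%), with IDR members at Or56a and Or67d and weaker peaks at Ir11a (54.8) and Gr92a (50.7). Ribosomal protein genes were at 3 of 93 (3.23%), with no IDR member and signals of up to 43.4 at RpL40, RpL10Aa and RpS26. Chemosensory and ribosomal protein genes sit near the 3.89% of all genes. Among genes bordering a long enough gap, 8 of 23 chemosensory and 3 of 7 ribosomal protein genes flanked a peak, beside 44.3% of all genes. Counted in this way it was 13 of 18 for axon guidance, 10 of 18 for gap, pair-rule and segment genes and 8 of 14 for signalling. It was 6 of 12 for epidermis, trachea and gut genes, 6 of 9 for synaptic, 4 of 8 for proneural and 16 of 28 for other homeobox genes. By nearest TSS alone, hry and noc were the only genes with an IDR member among the lists after the homeobox genes, and the genes with a peak went from 13 to 5 for axon guidance, from 10 to 5 for gap, pair-rule and segment genes, from 6 to 3 for synaptic genes, from 6 to 4 for epidermis, trachea and gut genes, and from 1 to 0 for muscle.

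**Figure D5:**
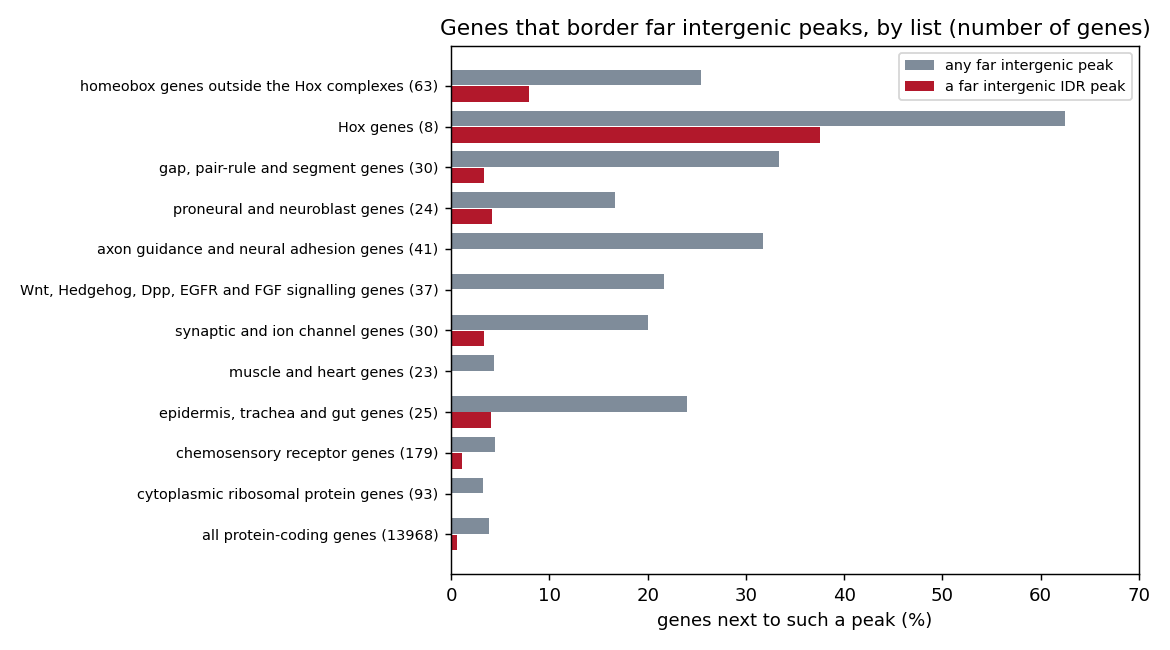
Share of the genes of each list (percent, horizontal axis) that border a far intergenic peak (grey) or a far intergenic IDR peak (red), with the number of genes in brackets. Hox genes are at 62.5% and 37.5%, homeobox genes outside the Hox complexes at 25.4% and 7.94%, and all protein-coding genes at 3.89% and 0.551%.

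Some of the flanking genes also had an IDR peak at their own promoter. Such a peak lay within 1 kb of a TSS for 95 of the 543 flanking genes (17.5%) and for 22 of the 77 that flank an IDR member (28.6%). Over all 13968 genes it was 26.9%, and over the 1225 that border a long enough gap 14.6%. Seen from the peaks, 33 of 71 IDR members (46.5%) had such a promoter peak at a flanking gene, as did 428 of the other 1108 (38.6%). Peaks of the same gap share their flanking genes, and 44 of the 71 IDR members stood in 13 gaps. The peaks are therefore not separate cases, and the difference was not tested.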

How the data were processed

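Whole embryos of 1 group, with 2 biological replicates, were measured by ChIP-seq. The authors deposited 4 peak lists in dm6 coordinates, per the labels: 1 per replicate, 1 from the pooled alignments (30000 peaks each) and the optimal IDR list. Each row holds a signal value per peak (never negative, from the authors' caller), a deposited −log10 q-value that saturates at 4.09, and the summit offset of the deposited file. One control alignment was used for the pool and for each replicate, per the file headers. No source used here gives the caller, its version or the IDR threshold. Depth is unknown, since the lists hold no read counts, and intervals cover the counting of peaks only.

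Summits were placed against 13968 protein-coding genes with 19630 start sites (Ensembl 115, the assembly of dm6). Fisher's exact test (two-sided) compared shares, and means were compared by permutation (100000 resamples), with Benjamini-Hochberg adjustment per family at 0.05. Intervals are Clopper-Pearson at 95%. Replicate matches needed 1 bp of overlap and took the strongest overlapping peak. No test compared groups of embryos. Named genes flank the 20 strongest IDR members, the 10 strongest others, the gaps with the most peaks, the strongest peak of each list gene (up to 4 per list), the peaks nearest to 10 kb, the strongest per non-coding class, the strongest in a single replicate and the 5 farthest peaks. Some gaps that the rule names are not reported here. The members, lists, sites and tests were chosen with earlier results of these data known. Code was tested on simulated peaks and run with Python 3.11.15, numpy 2.4.6, scipy 1.17.1, pandas 2.3.3 and matplotlib 3.10.9.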

Additional observations from a re-analysis of the deposited data

How the results depend on the processing

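No paired analysis was possible because the study has 1 group. The cause of each change listed here was not tested, except that other distances and gene sets change which peaks are counted. The number of far intergenic peaks was 2243 at over 5 kb, 363 at over 20 kb and 346 against genes of any biotype, where non-coding overlap has no value. With 5 kb, the odds ratio against near intergenic peaks was 0.742 (Fisher's exact test, adjusted p = 0.0143), the GC difference -2.12 and the masked difference 1.03. With 20 kb, the odds ratio against intronic peaks was 1.57 (Fisher's exact test, adjusted p = 0.241), the GC difference 0.26 and the non-coding odds ratio 0. With genes of any biotype, the near intergenic odds ratio was 1.00 and the masked difference 2.71. Leaving out a replicate gave near intergenic odds ratios of 0.670 to 0.803 and non-coding odds ratios of 0.834 to 1.21. The upper part of the IDR list by signal held 2.63% of members. Replicate matches were 69.3% and 67.9% at 50% overlap, and 7.63% and 8.31% in the strongest peaks. By nearest TSS alone, 44 genes had an IDR member.

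None of the 10 site odds ratios passed under any alternative, but 20 values changed side of 1. At 5 kb, TAAACG was 0.727 and TATCGA 1.04. At 20 kb, TAATTG was 1.12. With any biotype, TAATTG was 1.95, CAATAA 0.924 and CAGGTA 0. Leaving out a replicate gave 1.43 to 1.57 for TAATTG, 0.953 to 1.00 for TAAACG, 0.843 to 1.22 for TAATTT, 0.895 to 2.01 for GGTCAC, 0.649 to 1.30 for GAGAGA and 0.917 to 1.18 for CACACA. In the upper part of the IDR list, TAAACG was 0.764 and TAATTT 0.729. Within 25 bp, TAATTG was 1.38, TAATTT 0.345 and CAATAA 0.330. Within 100 bp, TAATTT was 0.990 and CACACA 1.24. Another 67 values and 100 site values kept their direction and, where tested, their call, or are counts and shares. Of these counts, the genes flanking a far intergenic peak fell from 543 to 374 by nearest TSS alone. With 71 IDR members, a site in none of them can still have a share of up to 5.06%.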
